A study of Homo sapiens with 8 samples.

Results

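The IGFL genes encode a small family of secreted, cysteine-rich proteins named for their likeness to insulin-like growth factors (IGF), and they lie together on the long arm of human chromosome 19. The 5 genes described here are the protein-coding genes IGFL1, IGFL2, IGFL3 and IGFL4 and the non-coding gene IGFL2-AS1, taken by gene name from 34164 genes listed in either of the deposited tables. The cluster was chosen by the fold changes of IGFL2-AS1 with UNC0642 and with shG9a, where it was among the genes with the largest shared increase. Those values are therefore given as a description, and no test was run on any member.

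RNA of Kyse510, an established human esophageal squamous cell carcinoma (ESCC) cell line, was sequenced in 8 libraries, with 1 library per condition and no replicate. The pharmacological arm held 4 libraries, of which 1 was a vehicle control with no duration given. The others were treated for 2 days with the LSD1 inhibitor SP2509 at 7 µM, the G9a inhibitor UNC0642 at 7 µM, or their combination. LSD1, encoded by KDM1A, is a histone demethylase, and G9a, encoded by EHMT2, is a histone methyltransferase. In the other arm, cells stably carried a doxycycline-inducible (Dox-inducible) lentiviral shLSD1 or shG9a construct after 14 days of puromycin selection, and each line was compared with and without 2 days of doxycycline. All 4 shRNA libraries thus come from transduced, puromycin-selected cells, 1 hairpin line per enzyme, whereas the inhibitor libraries come from cells for which no construct is given.

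The values are FPKM (fragments per kilobase of transcript, scaled to the library total), a level corrected for gene length and depth. Because FPKM values step in units of 1 read, the reads behind each value could be recovered, and the libraries held between 15662035 and 17889466 reads. All intervals are 95% intervals of the reads and cover counting error only, not the spread between cultures. In these bulk RNA samples, a change in the number of cells that express a gene and a change in RNA per cell cannot be told apart. KDM1A was 26.0 FPKM without and 6.29 FPKM with doxycycline in the shLSD1 line, and EHMT2 was 7.85 FPKM without and 4.76 FPKM with doxycycline in the shG9a line, so both targeted genes were lower in the library labelled as the knockdown. In the library with both inhibitors EHMT2 was also lower, at 5.38 FPKM against 11.1 FPKM in vehicle, and KDM1A was at 32.0 FPKM against 40.7 FPKM. In the shG9a line KDM1A was higher with doxycycline, at 35.8 FPKM against 26.4 FPKM without. Of 8 squamous epithelial markers, 6 reached 1 FPKM in all 8 libraries, and the summed level of the list ranged from 732 to 4932 FPKM. None of 4 markers of simple epithelium and none of 4 markers of leukocytes did so, with highest summed levels of 1.43 and 2.73 FPKM. COL1A1 was the fibroblast marker (1 of 4) and CDH5 the endothelial marker (1 of 3) that did, and these lists summed to at most 6.68 and 14.5 FPKM. The part of those markers in these results was not tested.

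LSD1 removes methyl groups from histone H3 lysine 4, a mark of active promoters and enhancers, and G9a places methyl groups on histone H3 lysine 9, a mark of silenced chromatin. The paper states that LSD1 also removes methyl groups from lysine 9. IGFL proteins are described mainly in skin and other squamous epithelia, and IGFL1 and IGFL3 are known to bind the cell-surface receptor IGFLR1. IGFL2-AS1 is a long non-coding RNA gene whose name places it antisense to IGFL2.

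By the positions in the files (GRCh38), the 5 genes lay within 191 kb of chromosome 19, from position 46039748 to 46231243. IGFL4 (ENSG00000204869) came first, on the minus strand at chr19:46039748-46077118, and IGFL3 (ENSG00000188624) followed on the minus strand at chr19:46120071-46124674. IGFL2 (ENSG00000204866) lay on the plus strand at chr19:46143106-46161299, and IGFL1 (ENSG00000188293) closed the cluster on the plus strand at chr19:46229752-46231243. IGFL2-AS1 (ENSG00000268621, listed as a lincRNA) lay between those last genes, on the minus strand at chr19:46189166-46203083. Despite its name it did not overlap IGFL2 at these positions: the gap was 27.9 kb to IGFL2 and 26.7 kb to IGFL1.

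IGFL2-AS1 did overlap other listed genes. It contained all 1086 bases of IGFL1P1, an unprocessed pseudogene on the opposite strand at chr19:46196238-46197323. The exons of the pair shared 0 bases in GENCODE release 44, so in that release the pseudogene's exons lay in introns of IGFL2-AS1. It overlapped the 3′ end of AC007785.1, a lincRNA gene on the plus strand at chr19:46101122-46196218, by 7053 bases, of which 100 were exonic in both genes. AC007785.1 has only 332 exonic bases and spans IGFL3 and IGFL2 without sharing exon bases with them. The strand setting of the read counting is not given in the sources used here. Reads in the stretches that IGFL2-AS1 shares with IGFL1P1 or with AC007785.1 therefore cannot be told apart. Among exon bases of GENCODE release 44 this concerns the 100 shared by IGFL2-AS1 and AC007785.1, out of the 332 of AC007785.1. That release is not the one counted: the length fitted for IGFL2-AS1 was 1751 bases, against 3336 exonic bases in release 44. The exon overlaps in the counted annotation were not examined and may differ. The coding members shared no exact stretch longer than 36 bases (IGFL2 with IGFL3), against a read length of 150 bases.

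**Figure D1:**
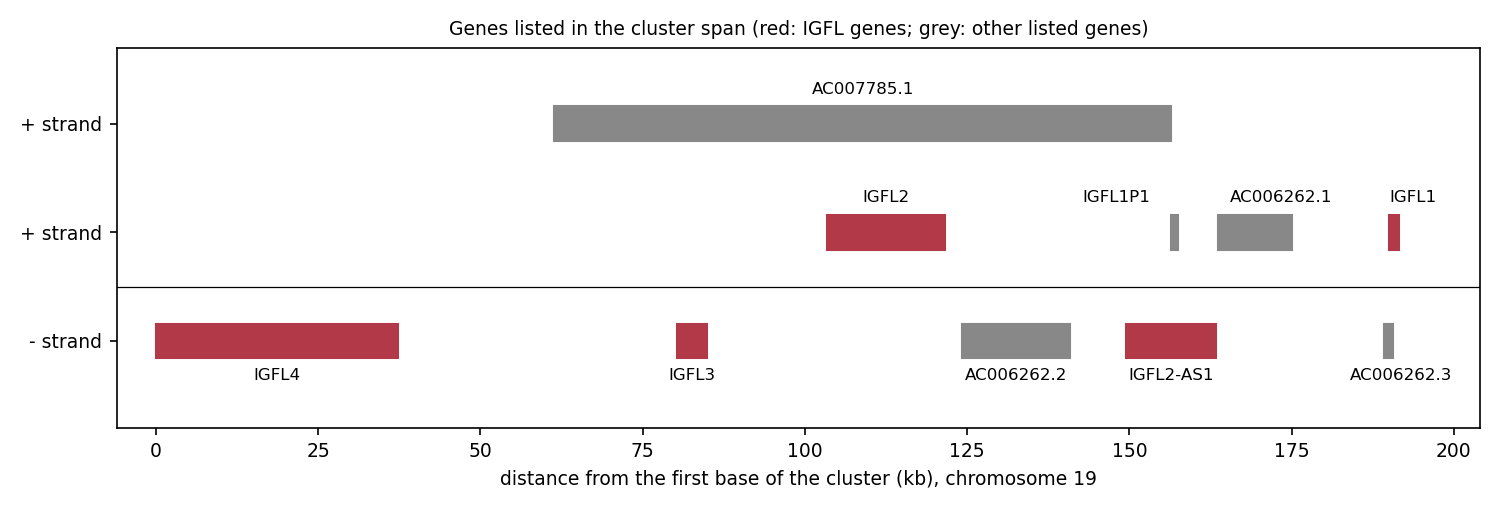
Map of the 10 genes that the files list within the cluster, with distance from its first base on chromosome 19 in kb on the x axis and strand on the y axis (AC007785.1 is drawn on a row of its own). IGFL2-AS1 on the minus strand covers IGFL1P1 and the end of AC007785.1 on the plus strand, and lies apart from IGFL2 and IGFL1.

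The promoters of the 4 coding genes are shown because these genes differed in response. The 250 bases before each RefSeq start (GRCh38.p14) are printed 5′ to 3′ on the strand of the gene, with matches to the searched motifs in capitals, and IGFL2-AS1 had no entry among them. They stand at chr19:46229492-46229741 (IGFL1, plus strand), chr19:46147988-46148237 (IGFL2, plus strand), chr19:46124689-46124938 (IGFL3, minus strand) and chr19:46077630-46077879 (IGFL4, minus strand, the upstream of its 2 listed starts).
IGFL1: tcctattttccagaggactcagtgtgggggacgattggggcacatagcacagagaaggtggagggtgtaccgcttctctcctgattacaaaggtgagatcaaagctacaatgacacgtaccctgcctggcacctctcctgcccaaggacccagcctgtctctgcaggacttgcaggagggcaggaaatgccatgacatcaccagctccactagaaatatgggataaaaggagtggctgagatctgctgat
IGFL2: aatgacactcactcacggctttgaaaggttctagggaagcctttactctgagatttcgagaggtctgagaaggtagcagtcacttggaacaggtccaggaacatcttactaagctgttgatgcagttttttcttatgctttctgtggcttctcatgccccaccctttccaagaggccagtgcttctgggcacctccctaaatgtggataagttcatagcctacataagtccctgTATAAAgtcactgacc
IGFL3: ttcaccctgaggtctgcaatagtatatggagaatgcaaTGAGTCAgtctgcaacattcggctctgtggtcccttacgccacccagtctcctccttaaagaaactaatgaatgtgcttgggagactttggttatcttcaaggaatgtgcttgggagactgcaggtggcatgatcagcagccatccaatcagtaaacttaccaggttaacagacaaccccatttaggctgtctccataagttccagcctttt
IGFL4: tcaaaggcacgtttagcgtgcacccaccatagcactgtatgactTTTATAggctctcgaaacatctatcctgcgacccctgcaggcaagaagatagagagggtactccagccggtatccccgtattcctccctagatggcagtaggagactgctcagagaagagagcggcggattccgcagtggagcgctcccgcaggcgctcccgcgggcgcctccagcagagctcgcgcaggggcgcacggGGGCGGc

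Both strands were searched for the TATA box, spelled TATAAA. The AP-1 site was spelled TGANTCA, and a GC box was searched as the letters GGGCGG; no match of these overlapped another. The IGFL2 window held TATAAA 16 bases before the start, as did 10.7% of 35116 promoters at any place in windows of the same length. The IGFL3 window held an AP-1 site 212 bases before the start (6.57% of promoters), and the IGFL1 window held none of the searched motifs. The upstream IGFL4 window held a GC box 7 bases before the start (42.6% of promoters) and TATAAA on the opposite strand. IGFL1, IGFL2 and IGFL3 had 3, 2 and 2 CG dinucleotides in these windows and IGFL4 had 20, against a median of 11 over all promoters. The window before the downstream IGFL4 start had 1, and 190 of its 239 aligned bases (79.5%) were identical to the IGFL2 window. These matches are letters in a window and not measured binding sites.

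IGFL2-AS1 had the highest level of the listed members in each of the 8 libraries and was the one measured at 1 FPKM or more in all 8. In the pharmacological arm it was at 3.46 FPKM in vehicle (95 reads), 6.32 FPKM with SP2509 (197 reads), 12.5 FPKM with UNC0642 (391 reads) and 25.3 FPKM with both inhibitors (749 reads). Vehicle was thus lowest and the combination highest, and the counting intervals of the 4 libraries (2.80 to 4.23, 5.47 to 7.27, 11.3 to 13.8 and 23.6 to 27.2 FPKM) did not overlap. In the genetic arm it was at 4.12 FPKM without and 7.21 FPKM with doxycycline in the shLSD1 line (128 and 221 reads), and at 3.38 FPKM without and 12.1 FPKM with doxycycline in the shG9a line (98 and 366 reads). The uninduced lines differed by less than counting error, with shG9a at 0.822 times the shLSD1 level (0.625 to 1.08), and both induced libraries lay above both uninduced ones. A pair of transcript lengths gave whole reads for IGFL2-AS1, and the shorter, 1751 bases, was used, which gives the fewer reads and the wider intervals.

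**Figure D2:**
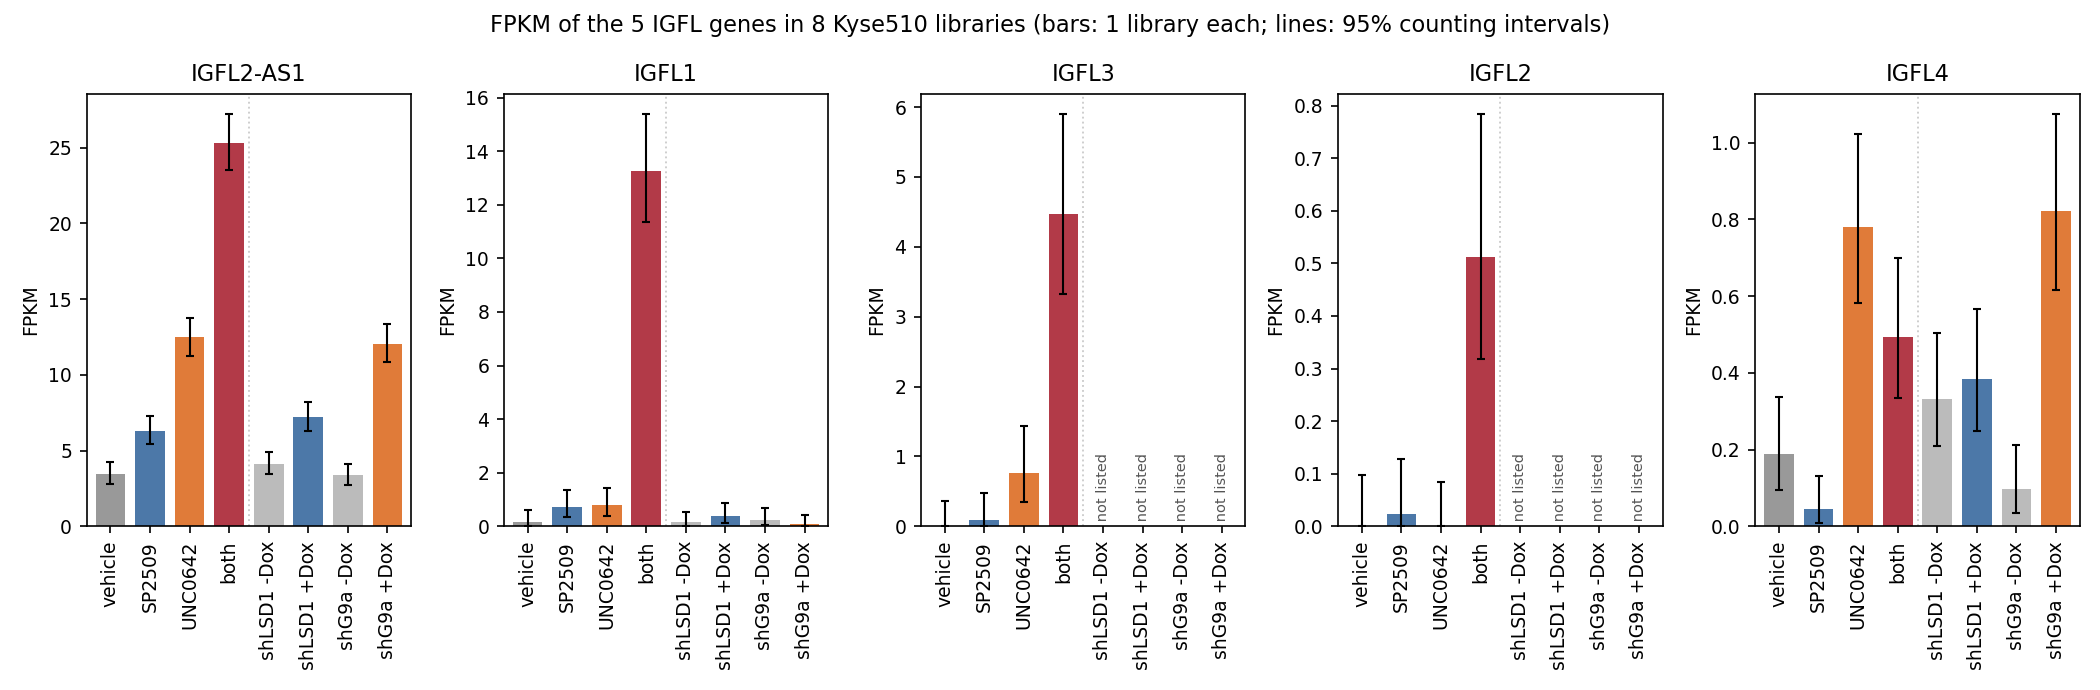
FPKM of each IGFL gene (y axes, which start at 0 and differ between panels) in the 8 libraries (x axis), 1 bar per library, with 95% counting intervals as lines and "both" for SP2509 with UNC0642. IGFL2-AS1 rises from 3.46 FPKM in vehicle to 25.3 FPKM with both inhibitors, IGFL1 and IGFL3 exceed 1 FPKM with both inhibitors only, and IGFL4 stays below 1 FPKM throughout.

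The study required a fold of 1.3 together with a p-value threshold. Only the fold is used here, on FPKM values with a pseudocount of 1, for genes with at least 1 FPKM in at least 1 of the 2 libraries. Shares past the fold are therefore not comparable with the study's gene counts. SP2509 asks what inhibition of LSD1 does: IGFL2-AS1 was 1.82 times its vehicle level (1.42 to 2.36; log2 fold change 0.71). It was the 1 member tested and was past 1.3-fold, as were 21% of the 13342 genes tested in that direction, and 1686 of them rose by more. With shLSD1 it was 1.75 times the uninduced level (1.40 to 2.19; log2 fold change 0.68). Again 1 member was tested and was past 1.3-fold, where the share of all 12970 genes was 24.8% and 1156 of them rose by more. For both LSD1 comparisons IGFL2-AS1 therefore lay inside the bulk of rising genes.

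With UNC0642, IGFL2-AS1 was 3.60 times its vehicle level (2.87 to 4.56; log2 fold change 1.59), and with shG9a it was 3.57 times the uninduced level (2.85 to 4.50; log2 fold change 1.58). These are the values that chose the gene. In each of these comparisons it was the 1 member tested and was past 1.3-fold upwards, with shares of 18.2% of 13244 genes for UNC0642 and 32.9% of 13080 genes for shG9a, and 169 and 116 genes rose by more. In the knockdowns the bulk of well-measured genes (5 FPKM or more with and without doxycycline) was shifted upwards, with median log2 fold changes of 0.11 for shLSD1 and 0.14 for shG9a. Relative to that shift the log2 fold change of IGFL2-AS1 was 0.57 and 1.43, and the share of all calls that were upwards went from 66.8% to 50.7% for shLSD1 and from 65.2% to 50.03% for shG9a.

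With both inhibitors, IGFL2-AS1 was 7.32 times its vehicle level (5.90 to 9.15; log2 fold change 2.56), and 164 of 13907 genes rose by more. This ratio and the SP2509 ratio use the same vehicle library as the UNC0642 comparison that chose the gene. The combination also contained UNC0642. Neither ratio, nor its rank, is therefore independent of that choice. The combination was 4.01 times the level with SP2509 (3.42 to 4.72) and 2.03 times the level with UNC0642 (1.79 to 2.30). The log2 fold changes of the single inhibitors add to 2.31, beside 2.56 for the combination. All 3 members tested in the combination, IGFL1, IGFL3 and IGFL2-AS1, were past 1.3-fold upwards, where 31.4% of all genes were. IGFL1 and IGFL3 entered that comparison only through the combination library, where they were high, so their count lends no support to a direction.

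**Figure D3:**
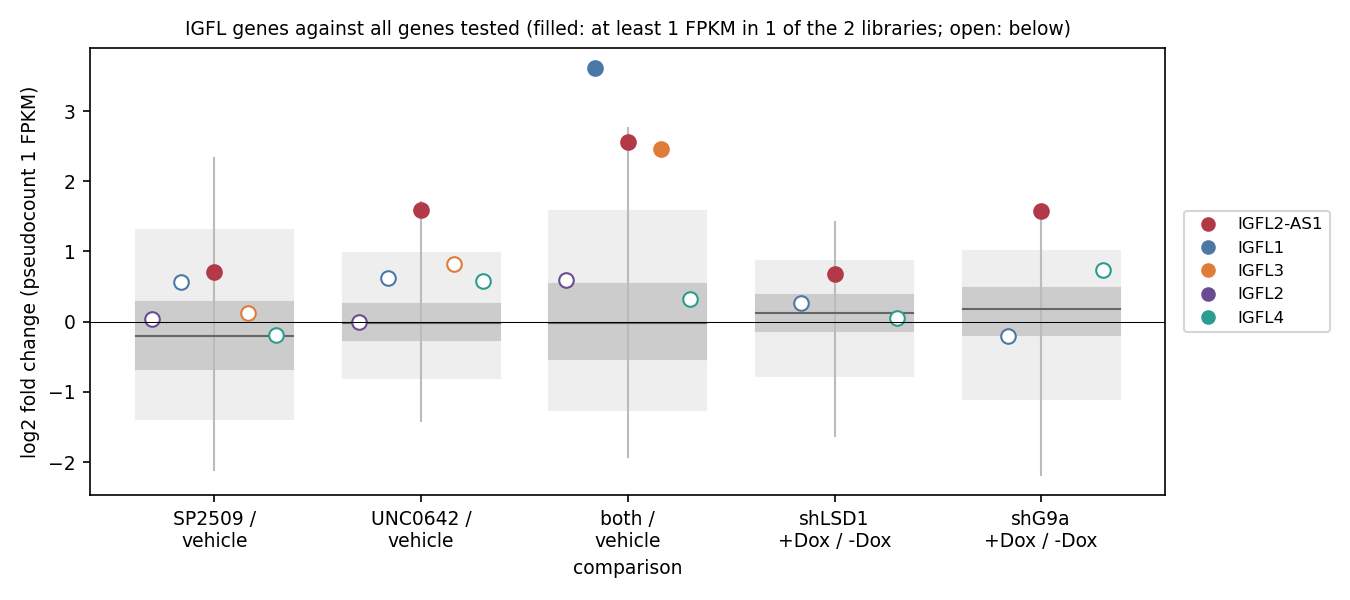
log2 fold change (y axis, pseudocount of 1 FPKM) of the IGFL genes (points) in the 5 comparisons (x axis) beside all genes tested, whose 25th to 75th percentiles are the dark boxes, 5th to 95th the light boxes, 1st to 99th the thin lines, and medians the dark lines. Filled points have at least 1 FPKM in 1 of the 2 libraries; IGFL1 at 3.61 with both inhibitors lies above the 99th percentile of 2.76, and IGFL2-AS1 lies inside the light box for SP2509 and shLSD1 and above it for the other comparisons.

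IGFL1, a coding member described in inflamed skin, was near 0 in vehicle and high with both inhibitors only. It was at 0.166 FPKM in vehicle (2 reads), 0.730 FPKM with SP2509 (10 reads), 0.800 FPKM with UNC0642 (11 reads) and 13.3 FPKM with both inhibitors (172 reads). The combination was 79.8 times vehicle (21.8 to 664), a wide interval because vehicle held 2 reads, and its log2 fold change of 3.61 was exceeded by 44 of 13907 genes. Against the better-counted single inhibitors, the combination was 18.1 times SP2509 (9.63 to 38.5) and 16.6 times UNC0642 (9.03 to 33.8). The single inhibitors were at 4.40 (0.937 to 41.3) and 4.82 times vehicle (1.05 to 44.7), so an increase with SP2509 alone was not detectable at this depth. On the log2 scale the single inhibitors add to 1.20, beside 3.61 for both.

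No shRNA library reached 1 FPKM of IGFL1. The shLSD1 line held 2 reads uninduced and 5 induced (0.146 and 0.371 FPKM), and the shG9a line 3 and 1 (0.236 and 0.0751 FPKM). The ratios were 2.54 (0.415 to 26.6) and 0.318 (0.0061 to 3.96), so neither direction could be read at this depth. No library with both knockdowns was analysed here, so the combination has no counterpart among the shRNA libraries.

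IGFL3, another coding member, had 0 reads in vehicle, 1 read with SP2509 (0.0848 FPKM), 9 reads with UNC0642 (0.760 FPKM) and 50 reads with both inhibitors (4.47 FPKM). With vehicle set to a floor of 3 reads (0.289 FPKM), the combination was 15.5 times and UNC0642 2.63 times that floor. These ratios leave out the counting error of the treated library. The counting intervals of the log2 fold changes began at 1.94 for the combination and 0.22 for UNC0642. The combination was 5.89 times UNC0642 (2.87 to 13.6), so the gene was higher with both inhibitors than with UNC0642 by more than counting error. Its log2 fold change of 2.45 with both inhibitors was exceeded by 187 genes, and the single inhibitors add to 0.93. At a pseudocount of 0.01 FPKM the log2 fold changes were 3.25 with SP2509, 6.27 with UNC0642 and 8.81 with both. The combination of IGFL3 thus exceeds the sum at a pseudocount of 1 but not at 0.01. IGFL3 is not listed in the shRNA table, which gives no value for it there.

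IGFL2, a further coding member, had 0 reads in vehicle and with UNC0642, 1 read with SP2509 (0.0232 FPKM) and 21 reads with both inhibitors (0.513 FPKM). The combination was 6.49 times the floor of 3 reads in vehicle, a ratio that leaves out the counting error of the combination. The gene stayed below 1 FPKM in all 4 libraries and was not tested. It too is not listed in the shRNA table. With UNC0642, where the neighbouring IGFL2-AS1 was at 12.5 FPKM, the counting interval of the 0 reads of IGFL2 reached up to 0.0850 FPKM.

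IGFL4, at the other end of the cluster, was below 1 FPKM in all 8 libraries and never entered a comparison, and its order over the libraries differed from that of the other coding genes. It was at 0.189 FPKM in vehicle (11 reads), 0.0452 FPKM with SP2509 (3 reads), 0.780 FPKM with UNC0642 (52 reads) and 0.493 FPKM with both inhibitors (31 reads). UNC0642 was 4.14 times vehicle (2.13 to 8.80), the combination was 2.61 times vehicle (1.28 to 5.77), and SP2509 was 0.240 times vehicle (0.043 to 0.908). The combination was 0.632 times UNC0642 (0.391 to 1.004), so the highest library here was UNC0642 alone, although the pair was not separated by counting error.

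In the shG9a line IGFL4 was at 0.0974 FPKM without and 0.822 FPKM with doxycycline (6 and 53 reads), a ratio of 8.44 (3.63 to 24.0). In the shLSD1 line it was at 0.333 and 0.383 FPKM (22 and 25 reads), a ratio of 1.15 (0.624 to 2.14), and its log2 fold change of 0.05 became -0.06 after centring. The uninduced shG9a library was itself at 0.293 times the uninduced shLSD1 library (0.097 to 0.744), so the controls differed in IGFL4 beyond counting error. With the mean of both uninduced libraries as the control, the log2 fold change with shG9a was 0.58 in place of 0.73. These values carry a pseudocount of 1 FPKM, above every level of IGFL4. The ratio of 8.44 rests on the lower of these controls and was not recomputed with their mean.

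Summed over the 4 coding genes, the level was 0.355 FPKM in vehicle, 0.884 FPKM with SP2509, 2.34 FPKM with UNC0642 and 18.7 FPKM with both inhibitors. The shRNA table lists only IGFL1 and IGFL4 of these genes, so its sums cover 2 genes and are not comparable with the sums of 4: they were 0.479 FPKM without and 0.755 FPKM with doxycycline for shLSD1, and 0.333 and 0.897 FPKM for shG9a. IGFL1 made up most of the combination's sum, and IGFL4 most of the sum in the induced shG9a library.

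The files list 5 other genes within the cluster. IGFL1P1, which lies inside IGFL2-AS1, was at 3.55 FPKM in vehicle, 0.936 FPKM with SP2509, 18.5 FPKM with UNC0642 and 28.0 FPKM with both inhibitors (20, 6, 119 and 170 reads). The shLSD1 line held 3.91 FPKM uninduced and 9.52 FPKM induced (25 and 60 reads), and the shG9a line 5.37 and 8.82 FPKM (32 and 55 reads). The ratios were 5.21 for UNC0642 (3.23 to 8.84), 7.89 for both inhibitors (4.95 to 13.2), 2.43 for shLSD1 (1.50 to 4.05) and 1.64 for shG9a (1.04 to 2.62), whereas with SP2509 the level was 0.264 times vehicle (0.0867 to 0.681). Its order in the pharmacological arm therefore differed from that of IGFL2-AS1 at SP2509, where IGFL2-AS1 was higher than in vehicle and IGFL1P1 was lower.

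AC007785.1 showed the same order as IGFL1P1 in the pharmacological arm, at 1.35, 0.169, 5.22 and 9.28 FPKM in vehicle, SP2509, UNC0642 and the combination (7, 1, 31 and 52 reads). In the shLSD1 line it was at 1.53 and 4.13 FPKM, a ratio of 2.70 (1.21 to 6.61), and in the shG9a line at 2.19 and 3.48 FPKM, a ratio of 1.59 (0.741 to 3.57). AC006262.1, which starts 0.342 kb beyond IGFL2-AS1, was at 0.173 FPKM in vehicle and 1.47 FPKM with both inhibitors (16 and 147 reads), a ratio of 8.52 (5.08 to 15.3), and between 0.280 and 0.297 FPKM in the 4 shRNA libraries. AC006262.2 had 11 reads with both inhibitors and 0 in each other library of that arm, and AC006262.3, which overlaps IGFL1 by 637 bases on the opposite strand with 95 shared exon bases, had 2 and 0. Of these 5 genes, 2 of 2 tested were lower by 1.3-fold with SP2509, beside 39.9% of all genes. Both, IGFL1P1 and AC007785.1, reached 1 FPKM only in vehicle, where they were higher, so this count lends no support to a direction. With UNC0642, both inhibitors, shLSD1 and shG9a, 2 of 2, 3 of 3, 2 of 2 and 2 of 2 were higher, beside 18.2%, 31.4%, 24.8% and 32.9% of all genes. AC006262.1 entered the comparison with both inhibitors only through the combination library, so its count lends no support to a direction.

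**Figure D4:**
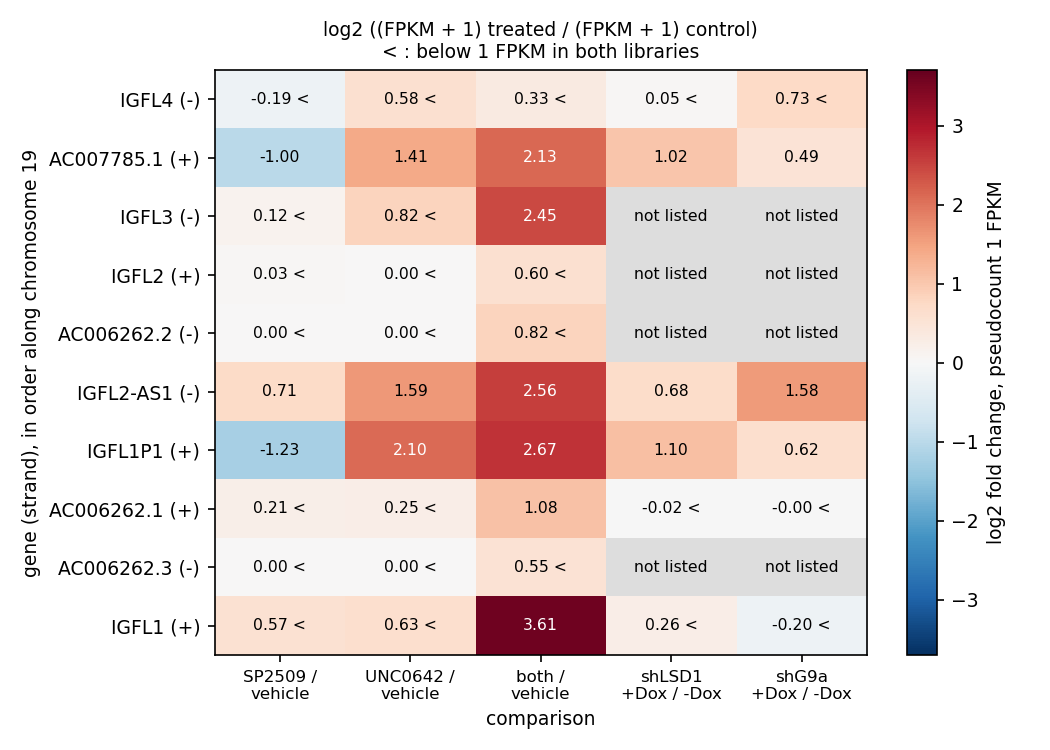
log2 fold change (colour and number, pseudocount of 1 FPKM) of the 10 listed genes in their order along chromosome 19 (y axis) in the 5 comparisons (x axis), where "<" marks genes below 1 FPKM in both libraries and grey marks genes that are not listed. With both inhibitors the 10 values range from 0.33 (IGFL4) to 3.61 (IGFL1), whereas with SP2509 IGFL1P1 and AC007785.1 are at -1.23 and -1.005 and IGFL2-AS1 is at 0.71.

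Beyond the cluster, 43 other genes were listed within 500 kb on either side. With both inhibitors 16 of them were tested, of which 6 were higher and 3 lower by 1.3-fold (31.4% and 31.7% of all genes), with a median log2 fold change of 0.24 against -0.02 over all genes. With UNC0642 6 of 17 were higher and none lower, and with shG9a 7 of 20 were higher and 3 lower, with medians of 0.26 and 0.27 against -0.01 and 0.18 over all genes. With SP2509 0 of 16 were higher and 3 lower, and with shLSD1 4 of 18 were higher and none lower, with medians of -0.04 and 0.08 against -0.21 and 0.13. Over all genes the shares higher were 21%, 18.2%, 24.8% and 32.9%, and the shares lower 39.9%, 16.9%, 12.3% and 17.6%, for SP2509, UNC0642, shLSD1 and shG9a. In each comparison but SP2509, the neighbours past the fold included 1 or more that reached 1 FPKM in only 1 of the 2 libraries. Such genes lend no support to a direction.

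A total of 4 neighbours were past the fold in 3 or more comparisons. CALM3, one of the calmodulin genes, was at 33.3, 34.9, 47.2 and 47.4 FPKM in vehicle, SP2509, UNC0642 and the combination, and at 39.6 and 52.7 FPKM in the shLSD1 line and 39.4 and 71.4 FPKM in the shG9a line. OPA3, which encodes a mitochondrial protein, went from 2.65 FPKM in vehicle to 1.35 FPKM with SP2509 and 6.47 FPKM with both inhibitors. DMPK, the myotonic dystrophy protein kinase gene, went from 1.78 to 5.10 FPKM with both inhibitors. AC007191.1 was at 1.22 FPKM in vehicle, 2.89 FPKM with UNC0642 and 0.692 FPKM with both inhibitors. The log2 fold changes of these neighbours with both inhibitors were 0.50, 1.03, 1.13 and -0.39. They were smaller in size than those of IGFL1, IGFL3 and IGFL2-AS1, of which IGFL1 and IGFL3 were tested only through the combination library. The members below 1 FPKM, IGFL2 and IGFL4, were at 0.60 and 0.33, below OPA3 and DMPK.

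IGFLR1, the receptor of IGFL proteins, was at or below 0.165 FPKM in all 8 libraries (0 to 6 reads) and could not be compared at this depth. Of the 22 genes of the IGF system list (IGFLR1 and the IGF ligands, receptors, adaptors, binding proteins, their proteases and mRNA-binding proteins), 13 or 14 were tested in each comparison. With SP2509 5 of 13 were higher and 2 lower, beside 21% and 39.9% of all genes. With UNC0642 3 of 13 were higher and 2 lower (18.2% and 16.9% of all genes), and with both inhibitors 2 of 13 were higher and 4 lower (31.4% and 31.7%). With shLSD1 4 of 14 were higher and 5 lower (24.8% and 12.3%), and with shG9a 2 of 13 were higher and 5 lower (32.9% and 17.6%). As a share of the genes tested, the counts for UNC0642 and the lower count for both inhibitors lay near the shares over all genes. The lower counts include IGFBP5 with UNC0642 and with both inhibitors, and IRS2 with shG9a. These reached 1 FPKM in the control only and lend no support to a direction. Their median log2 fold changes were 0.35, 0.15, -0.23, 0.13 and -0.22, against -0.21, -0.01, -0.02, 0.13 and 0.18 over all genes. The ligand gene IGF2 was at or near 0 in the inhibitor table, at most 0.028 FPKM, and the receptor gene IGF1R was between 15.3 and 25.8 FPKM in all libraries.

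A total of 5 genes of the list were past the fold in 3 or more comparisons. The binding protein gene IGFBP6 was at 39.6, 99.8, 55.1 and 156 FPKM in vehicle, SP2509, UNC0642 and the combination, but doxycycline took it from 101 to 68.7 FPKM with shLSD1 and from 94.7 to 8.28 FPKM with shG9a. It was therefore higher with each inhibitor and lower with each knockdown. IGFBP3, the main carrier of circulating IGF, was at 254 FPKM in vehicle, 531 FPKM with SP2509 and 193 FPKM with both inhibitors, and doxycycline took it from 800 to 88.2 FPKM with shG9a and from 900 to 277 FPKM with shLSD1. IGFBP5 went from 4.95 to 17.5 FPKM in the shG9a line and from 1.98 to 0.708 FPKM with both inhibitors. IRS2, an adaptor of the insulin and IGF receptors, went from 2.02 to 12.8 FPKM with both inhibitors and from 3.08 to 0.660 FPKM in the shG9a line. IGF2BP3, an mRNA-binding protein gene, went from 11.3 to 3.05 FPKM with both inhibitors and from 3.73 to 6.82 FPKM in the shLSD1 line.

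IGFL2-AS1 was the member with at least 1 FPKM in some library of each table, so the genes with the most similar pattern were sought for it alone. Likeness was the Euclidean distance between the 5 log2 fold changes, over 12566 genes, and 3 of the comparisons share the vehicle library. The nearest genes were SFN (distance 0.75), which encodes the epithelial 14-3-3 sigma protein and is also on the squamous marker list, MSX1 (distance 0.78), a homeobox transcription factor gene, and STRIP2 (distance 0.90). SFN was at 179, 312, 412 and 690 FPKM in vehicle, SP2509, UNC0642 and the combination, and doxycycline took it from 196 to 341 FPKM with shLSD1 and from 206 to 611 FPKM with shG9a. MSX1 went from 0.663 FPKM in vehicle to 10.5 FPKM with both inhibitors and from 1.08 to 5.20 FPKM in the shG9a line. STRIP2 went from 1.39 to 7.81 FPKM and from 0.514 to 2.24 FPKM in the same comparisons.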

How the data were processed

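Whole RNA of 8 Kyse510 libraries, 1 per condition, was sequenced by the authors as paired-end 150-base Illumina reads. The authors deposited FPKM per gene in 2 tables, of the inhibitor arm (31582 genes) and the shRNA arm (28942 genes; 26360 in both), after removing low-quality and adapter reads and mapping to GRCh38, release 87 by the paper's methods. The aligner, the counter and the use of strand are not given in the sources used here.

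Library totals were recovered from single-exon genes, of which 99.89% to 99.91% of values per library gave whole reads within 0.001. Each gene's length was fitted so that its values gave whole reads in all libraries. KDM1A, whose listed positions differ between the arms, was instead fitted within each arm. Treated libraries were compared with their own control (vehicle, or the same line without doxycycline) as log2 of the ratio of FPKM + 1, for genes with at least 1 FPKM in 1 of the 2 libraries, with a threshold of 1.3-fold. Intervals are exact Poisson intervals of levels and exact conditional binomial (Clopper-Pearson) intervals of ratios, at 95%; a library at 0 reads was set to a floor of 3 reads. With 1 library per condition no p-value is given. The paper names a nonsilencing hairpin as the knockdown control, whereas the labels describe the same line without doxycycline, which was used.

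The members and gene lists were chosen with earlier results of these data known. Genes named are the members, IGFLR1, the 2 targeted genes, genes of the IGF list and neighbours past the fold in 3 or more of 5 comparisons, and the 3 genes nearest to IGFL2-AS1; IGF2 and IGF1R, the genes at the same locus and single markers were named after their values were seen. Comparisons of the combination with each inhibitor and of the uninduced lines were added after the data were seen. Alternatives were other pseudocounts, filters and thresholds, centring on the median gene, and the mean of both uninduced libraries as the control. Exons came from GENCODE 44 and promoters from RefSeq (GRCh38.p14). The procedure was tested on simulated data. Python 3.11.15, numpy 2.4.6, scipy 1.17.1, pandas 2.3.3 and biopython 1.88 were used.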

Additional observations from a re-analysis of the deposited data

Results flagged for a closer look

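At the same locus, 2 genes moved in opposite directions under the inhibitor and the knockdown of LSD1, with both counting intervals on 1 side of 0. IGFL1P1 had a log2 fold change of -1.23 with SP2509 against vehicle and 1.10 with shLSD1, and AC007785.1 had -1.005 with SP2509 and 1.02 with shLSD1. With SP2509 these rest on 6 and 1 reads against 20 and 7 in vehicle. The difference between the inhibitor and the knockdown was not tested, since each condition has 1 library. The genes share sequence positions with IGFL2-AS1, whose log2 fold changes in the same comparisons were 0.71 and 0.68.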

How the results depend on the processing

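No paired analysis was possible because each condition has 1 library, and for the same reason no replicate could be left out. Without the filter on low values, the number of IGFL genes past 1.3-fold was 2 for SP2509, 4 for UNC0642 and 2 for shG9a, in place of 1 each. With a threshold of 2-fold it was 0 for SP2509 and for shLSD1, in place of 1 each. The other 27 of 32 recomputed counts were within 1.5 times the value given. No log2 fold change of a member past the fold changed its direction in 69 recomputed values, of which 34 moved outside the counting interval, mostly of genes under 1 FPKM at smaller pseudocounts. IGFL1 with both inhibitors had 5.65 at a pseudocount of 0.1 and 6.23 at 0.01, in place of 3.61. Restricting to protein-coding genes lowered the share of all genes past 1.3-fold in each comparison, from 60.9% to 56.2% for SP2509 and from 35.1% to 29.9% for UNC0642. Depth limits every member but IGFL2-AS1: vehicle held 2 reads of IGFL1, and 0 of IGFL2 and IGFL3.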
